A study of Homo sapiens with 7 samples.

Results

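The 4 arrays described here hold the expression profile of the established human embryonic stem cell line H1 in 4 closely related media. They are read jointly as a picture of the cells' baseline, out of 7 arrays in the series. The first array is of cells given E8 with 1% albumin (Albumin). The second is of cells given E8 with 1% chemically defined lipid concentrate (CDL), and the third is of cells given E8 with a homemade chemically defined lipid mixture at 0.1x (hCDL (0.1x)), whose sample title gives 0.01% instead. The fourth is of cells kept in plain E8, a defined medium free of albumin. All 4 cultures grew on matrigel, were passaged with 5 µM of the ROCK inhibitor Y27632, which was removed after 24 h, and were collected after 2 days of treatment. Cells with AlbuMAX or lysophosphatidic acid were not compared here.

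Each medium has 1 array, so no test was possible and every difference below is a description. A difference between media and a difference between arrays of 1 medium cannot be told apart. Signal is the normalized log2 intensity of a bead probe. The genes were chosen by their measured values: a probe was kept where its deposited detection p-value was under 0.01 on all 4 arrays (called above background), and the brightest such probe stood for its gene. This kept 10831 of 33866 probes and 6476 of 12851 named genes (50.4%). A further 5162 genes passed on none of the 4 arrays, and 565, 331 and 317 were above it on 1, 2 and 3 arrays. Probes whose highest detection p-value lay just inside the limit, at 0.00909, had a median signal of 5.56, and those just outside it, at 0.0104, had 5.52. Per array, 12594 probes were above background in Albumin, 11950 in CDL, 12632 in hCDL (0.1x) and 11722 in E8, and the median deposited intensity ran between 108.5 and 116.9. Over the 6476 genes the mean signal of the 4 arrays had a median of 8.36 and ran between 5.34 and 14.52.

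Human embryonic stem cells keep themselves undifferentiated through a small circuit of transcription factors, fed by FGF and Nodal signals from the medium and from the cells themselves. They divide rapidly with short gap phases and rely strongly on glycolysis. E8 supplies insulin, FGF2 and TGF-beta without lipid, so that the cells must make their own fatty acids and cholesterol unless the medium brings some.

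Markers of the labelled cell type were present. The list of core pluripotency factors holds 22 genes, and only 11 of them are named on the array here. All 11 were above background, with a median signal of 10.81, beside 8.36 over all genes. Of the 11, 8 lay above that overall median, and PRDM14, at 6.35, was among those below it. POU5F1 (OCT4), a master factor of pluripotency, had 10.84 in Albumin, 11.02 in CDL, 10.79 in hCDL (0.1x) and 10.61 in E8. CDL was thus the brightest of the 4 and E8 the dimmest, 1.33-fold apart. NANOG, its partner factor, had 10.31 in Albumin, 10.26 in CDL, 10.34 in hCDL (0.1x) and 10.31 in E8, a range of 1.06-fold. A second NANOG probe agreed to within 0.10 in mean signal, whereas the second POU5F1 probe, at 4.67, passed on no array.

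PODXL, the surface sialomucin that carries the TRA-1-60 epitope, had 12.82 in Albumin, 12.87 in CDL, 12.84 in hCDL (0.1x) and 12.99 in E8. Its second probe was lower as a whole, at 10.06, and equally even between the arrays, and 1 further probe passed on no array. LIN28A, an RNA-binding protein that blocks the let-7 microRNAs, had 13.34 in Albumin, 13.32 in CDL, 13.39 in hCDL (0.1x) and 13.47 in E8. L1TD1, another RNA-binding protein of these cells, averaged 13.24. None of the 11 factors reached a range of 1.5-fold, beside 8.03% of all genes. The widest were OTX2, a factor of the primed state and of the forebrain, with 8.14 in Albumin, 7.77 in CDL, 8.33 in hCDL (0.1x) and 8.19 in E8, and FOXD3, another factor of these cells, which averaged 5.95 and was lowest in E8 at 5.63. SOX2 is not named on the array here.

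The list of surface and cytoplasmic markers of pluripotent cells was above background at all 20 named members, with a median of 11.37. None of them reached 1.5-fold. The list also holds nuclear proteins, such as the Polycomb members JARID2 and PHC1. CD24, a small glycoprotein anchored in the membrane, was the brightest at 14.30. Alkaline phosphatase, ALPL, had 11.86 in Albumin, 11.78 in CDL, 11.97 in hCDL (0.1x) and 12.16 in E8, the widest range together with CD59, an inhibitor of complement, at 1.30-fold each. Both stayed well inside the limit of 1.5-fold.

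Of the genes that mark the naive, earlier state of pluripotency, 2 of 9 were above background, both far below the median of all genes. These were KLF4 at 6.51 and NLRP7 at 6.30. KLF17, ESRRB and KLF5 were not among the genes above background on all 4 arrays. The median of the core factors and that of the naive genes above background, 6.40, thus lay on opposite sides of the overall median.

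Markers of other cell types that a dish could hold were mostly not above background on all 4 arrays. Over 7 lists, the members above background on all 4 arrays were 2 of 9 for neural ectoderm, 1 of 8 for mesoderm, 1 of 10 for endoderm, 3 of 14 for trophoblast and amnion, 3 of 11 for fibroblasts and mesenchyme, 1 of 11 for blood and immune cells and 1 of 7 for germ cells. This compares with 50.4% of all named genes. PAX6 of neural cells, GATA4 and HAND1 of mesoderm, FOXA2 and GATA6 of endoderm, CGA and GATA3 of trophoblast, LUM and DCN of fibroblasts and HBB of red cells were not among them. Of these, FOXA2 and CGA were above background on 1 array each. Some further members were above it on part of the arrays, such as MAP2, LYZ, NANOS3 and PIWIL2 on 3. Only 3 of the 12 members that passed on all 4 arrays were above the median of all genes. TUBB3, a tubulin typical of neurons, averaged 11.68. KRT8, a keratin of simple epithelia, averaged 10.81, and CD68, a lysosomal glycoprotein of macrophages, averaged 9.79. The other 9 lay low. KDR averaged 7.11, S100A4 6.58, PDGFRB 6.54, IGFBP3 6.25, AFP 6.25, GABRP 6.21, COL6A3 5.92, MAGEA4 5.92 and NCAM1 5.89.

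AFP, the fetal serum albumin homologue made by yolk sac and liver, had the widest range of these markers, with 6.05 in Albumin, 5.80 in CDL, 6.45 in hCDL (0.1x) and 6.71 in E8. At this level a range of 1.88-fold is 1 of many, since 22.5% of the genes in the same decile of signal reached 1.5-fold. MAGEA4, a cancer-testis antigen, was the only other one past 1.5-fold, with its highest value of 6.33 in Albumin. Neither reached it without background correction.

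**Figure D1:**
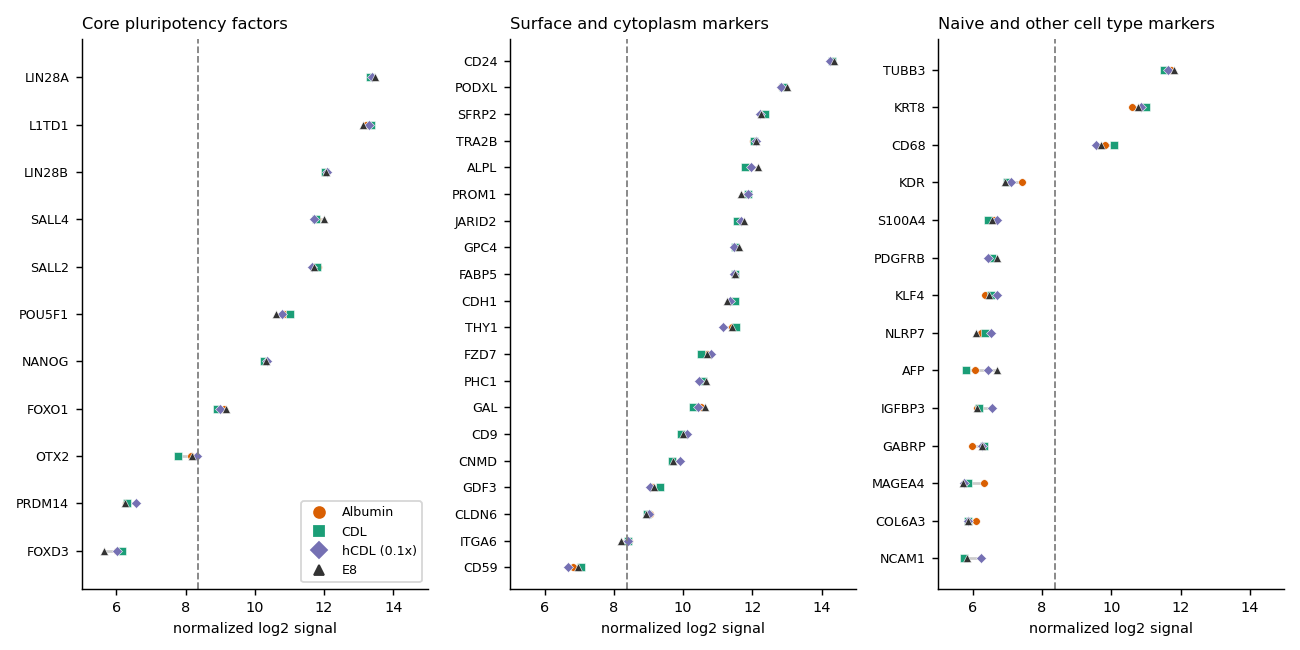
Normalized log2 signal (horizontal axis) of marker genes above background, 1 symbol per array (Albumin, CDL, hCDL (0.1x), E8), with a grey bar over the range and a dashed line at the median of all 6476 genes, 8.36. The pluripotency markers lie mostly right of the line with closely set symbols, and 11 of the 14 naive and other cell type markers lie left of it.

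The genes were then read by function, through 48 lists. In 35 lists the median of the members above background exceeded 8.36, and in 13 it was lower. These medians cover only the members that passed, and a probe's brightness depends on its own sequence as well as on its transcript. Among 1492 genes with several probes above background, the brightest and the dimmest probe of 1 gene differed by a median of 1.30, or 2.47-fold, and 41.8% were within 1. The order of 2 genes or lists by signal is therefore an order of probes and only loosely one of transcripts. Of the list members named below as past 1.5-fold, only SFPQ, TPI1, HSD17B7, PLIN5, TXNIP and the metallothioneins stayed there without background correction.

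**Figure D2:**
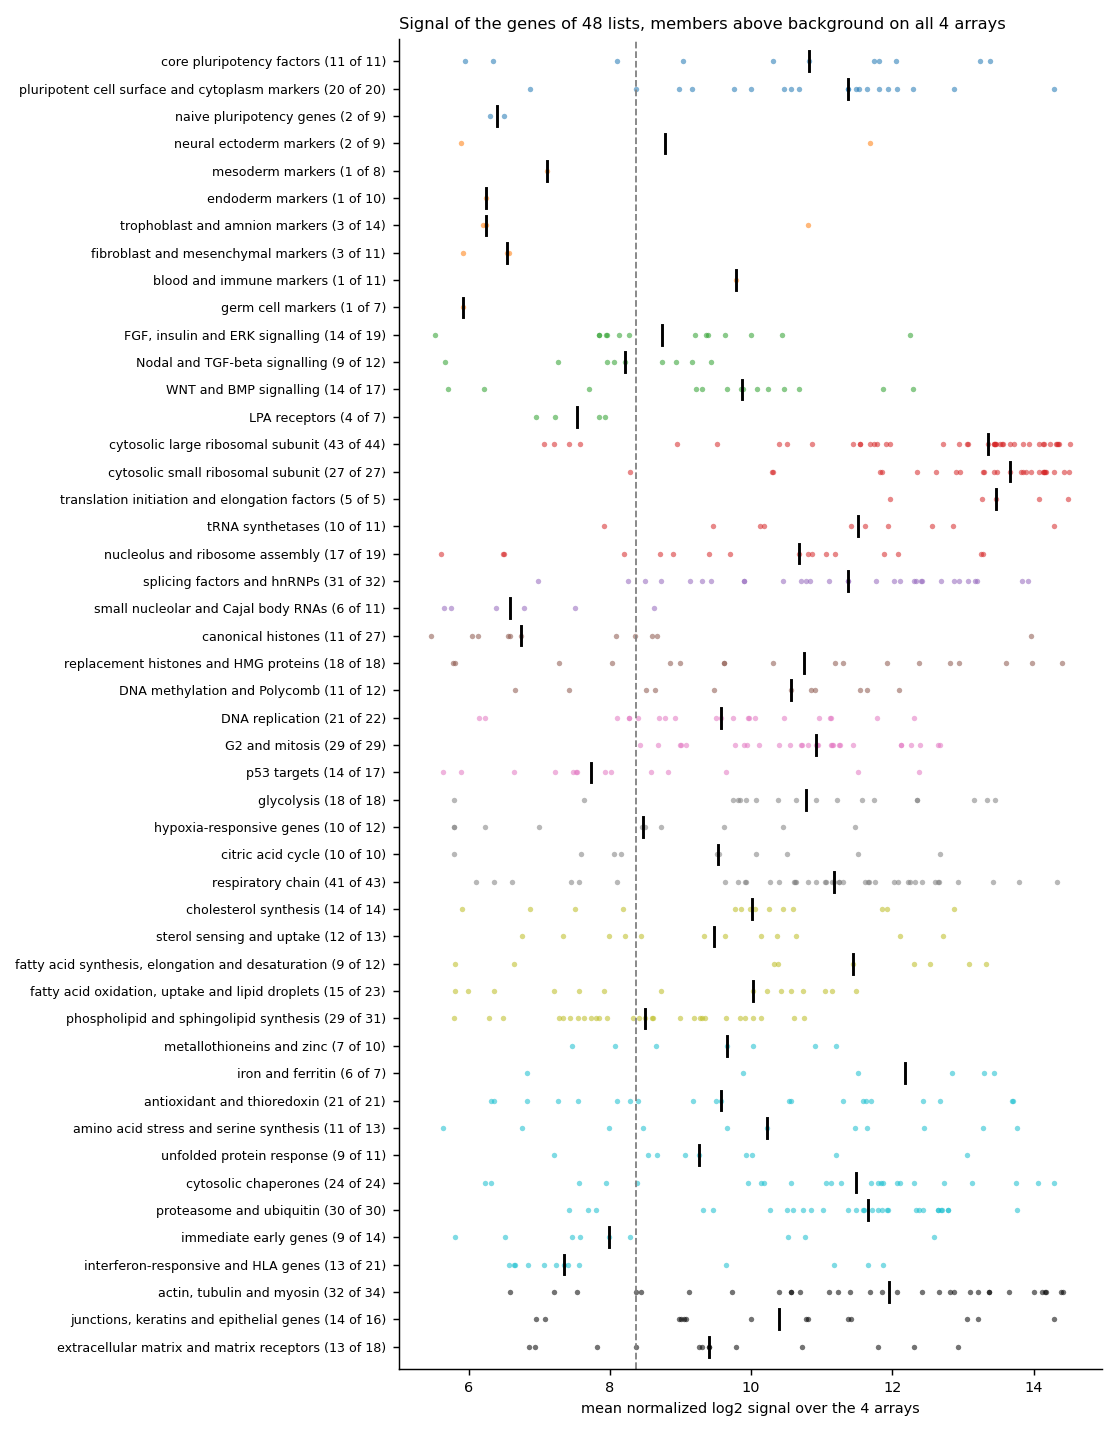
Mean normalized log2 signal over the 4 arrays (horizontal axis) of each gene above background in 48 lists (rows, coloured by role, with the number above background of the number named). Black ticks are list medians and the dashed line is the median of all genes, 8.36. Ribosomal and translation genes lie farthest right, and the germ cell, trophoblast, endoderm and naive lists have the lowest medians.

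Among signalling genes, 14 of 19 named members of the FGF, insulin and ERK list were above background, with a median of 8.74. CCND1, the cyclin D that growth factor signals induce, was the brightest at 12.25. FGF2, the growth factor that E8 itself supplies, also had signal in the cells' RNA, with 10.07 in Albumin, 9.81 in CDL, 10.14 in hCDL (0.1x) and 9.97 in E8. None of the 14 reached 1.5-fold. Of the Nodal and TGF-beta list 9 of 12 were above background, with a median of 8.22. LEFTY1, a secreted inhibitor and target of Nodal, had 9.35 in Albumin, 9.80 in CDL, 9.27 in hCDL (0.1x) and 9.30 in E8. NODAL itself followed the same order at its top, with 8.75 in Albumin, 8.96 in CDL, 8.57 in hCDL (0.1x) and 8.67 in E8. LEFTY2, the paralogue, had 7.28, 7.36, 6.88 and 7.53 in these media, so its highest value was in E8 and not in CDL. LEFTY2 and ACVR2B, an activin receptor, were the 2 members of this list past 1.5-fold.

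The WNT and BMP list had 14 of 17 named members above background. Its brightest were the secreted WNT antagonists SFRP2 at 12.30 and SFRP1 at 11.87. LRP6, a WNT co-receptor, was its only member past 1.5-fold, with 6.47 in Albumin, 5.66 in CDL, 6.46 in hCDL (0.1x) and 6.26 in E8, and CDL was the low array. ID2, a target of BMP, had 10.13 in Albumin, 9.97 in CDL, 9.70 in hCDL (0.1x) and 9.63 in E8. Of 7 named receptors for lysophosphatidic acid, 4 were above background and none reached 1.5-fold. LPAR4 averaged 7.93, LPAR2 7.85, LPAR3 7.22 and LPAR1 6.96, all below the median of all genes.

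The machinery of translation was the brightest class. The named proteins of the large cytosolic ribosomal subunit were above background at 43 of 44 members with a median of 13.35, and those of the small subunit at 27 of 27 with a median of 13.66. The list of translation factors is covered only in part, by BTF3, NACA, PABPC1, PABPC4 and TPT1, without any gene of an EIF or EEF symbol. All 5 were above background with a median of 13.46. TPT1, a translationally controlled protein, averaged 14.49, and NACA, which binds nascent chains at the ribosome, averaged 14.08. Only 1 of 70 ribosomal proteins had a range of 1.5-fold. It was RPL29, with 8.00 in Albumin, 7.38 in CDL, 7.50 in hCDL (0.1x) and 7.43 in E8, from a probe that is dim for this class. Its probe of smallest range varied by 0.33, under 1.5-fold. RPL8, the next, had 13.29 in Albumin, 13.36 in CDL, 13.30 in hCDL (0.1x) and 13.86 in E8. Apart from E8 its values lay within 0.10 of each other.

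The messages of ribosomal proteins are known to begin with a C followed by a run of pyrimidines, through which growth signals control their translation. The promoter tables of RefSeq on build GRCh38.p14 matched 5281 of the 6476 genes. The 8 brightest ribosomal protein genes that matched are shown with the 10 bases before the annotated start and the 20 from it on, 5′ to 3′ on the gene's strand. Capitals mark a C at the start base followed by at least 4 pyrimidines.
RPL41, chr12:56116623-56116652 (+): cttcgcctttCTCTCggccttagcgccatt
RPS12, chr6:132814559-132814588 (+): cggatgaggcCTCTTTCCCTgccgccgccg
RPS29, chr14:49598691-49598720 (-): agcgcgcagctggcagcggtggttgtttct
RPL6, chr12:112411423-112411452 (-): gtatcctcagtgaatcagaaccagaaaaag
RPL10A, chr6:35468391-35468420 (+): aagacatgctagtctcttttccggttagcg
RPL32, chr3:12841546-12841575 (-): acgacccatcagcccttgcgcgccaccgtc
RPL18, chr19:48619159-48619188 (-): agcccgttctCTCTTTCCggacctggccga
RPS19, chr19:41860245-41860274 (+): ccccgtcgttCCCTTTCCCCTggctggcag

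RPL41, RPS12, RPL18 and RPS19 carry the tract at the annotated base, and the other 4 do not. A start annotated a few bases away hides a tract from this reading, as the letters ctcttttcc within the RPL10A line show. Over all 60 ribosomal protein genes with a promoter, 41 (68.3%) had the tract at the start, beside 4.04% of all 27305 promoters of the table and 5.83% of the genes above background. In the brightest decile of genes 14.9% had it, and 9.56% once ribosomal proteins were left out. The other 9 deciles had between 4.17% and 6.17%. The brightest decile also had the shortest genes, with a median span of 17337 bases, beside 28371 over all genes and 5025 for the ribosomal proteins. CpG dinucleotides in the promoter, as observed over expected from the base content, averaged 0.733 in the dimmest decile and 0.837 in the brightest, with 0.551 over all promoters of the table. A TATAAA box between 45 and 11 bases before the start, on the gene's strand, was found in 1.87% of the genes above background and 2.68% of all promoters.

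Enzymes that charge transfer RNAs were above background at 10 of 11 named members, with a median of 11.52. NARS1 at 12.86 and AARS1 at 12.56, which charge asparagine and alanine tRNAs, were bright, below FARSB, whose probes disagreed as described further on. Genes of the nucleolus and of ribosome assembly had a median of 10.68 over 17 of 19 members. NOP10, of the small nucleolar complexes that modify ribosomal RNA, averaged 13.29 and nucleolin, NCL, averaged 13.26.

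Splicing factors and heterogeneous nuclear ribonucleoproteins had a median of 11.37 over 31 of 32 members. HNRNPD averaged 13.93 and HNRNPA2B1 averaged 13.84. SFPQ was the only one past 1.5-fold, with 9.53 in Albumin, 9.81 in CDL, 9.33 in hCDL (0.1x) and 9.08 in E8. Small nucleolar and Cajal body RNAs were above background at 6 of 11, with a median of 6.59.

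The lists that hold histones differed in signal, but the second also holds HMG proteins, so its median is not one of histones alone. The canonical histone genes, whose messages end in a stem-loop and lack a poly(A) tail, were above background at 11 of 27 members with a median of 6.74. Replacement histones and HMG proteins, whose messages are polyadenylated, were above background at 18 of 18 with a median of 10.75. H4C3 was the exception in the first list, with 14.06 in Albumin, 13.87 in CDL, 13.96 in hCDL (0.1x) and 13.99 in E8, and the next canonical gene, H2BC12, averaged 8.67. In the second list H3-3A, the replacement histone H3.3, averaged 14.40 and H2AZ1 averaged 13.97. Other histones of that list lay below the median of all genes, with H2AX at 8.04 and H2AZ2 at 5.77.

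Regulators of DNA methylation and Polycomb had a median of 10.57 over 11 of 12 members. KDM2B, which recruits a Polycomb complex to CpG islands, averaged 12.10, and JARID2, of the other complex, averaged 11.64. TET1, which oxidizes methylcytosine, was the only one past 1.5-fold, with 7.03 in Albumin, 7.66 in CDL, 7.66 in hCDL (0.1x) and 7.37 in E8.

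Cell cycle genes were measured almost throughout. All 29 named genes of G2 and mitosis were above background, every one of them brighter than the median of all genes, and none reached 1.5-fold. CKS2, a small subunit of cyclin-dependent kinases, averaged 12.68, and BUB3, a spindle checkpoint protein, averaged 12.64. CDK1, the mitotic kinase, was among the widest of the list at 1.26-fold, with 11.33 in Albumin, 11.31 in CDL, 11.36 in hCDL (0.1x) and 11.03 in E8. Its probe of smallest range varied by only 0.08. DNA replication genes were above background at 21 of 22, again with none past 1.5-fold, and with a median of 9.57. PCNA, the sliding clamp, averaged 12.30 and RRM1, of ribonucleotide reductase, 11.79.

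Targets of p53 held the cycle genes past 1.5-fold. Their median was 7.73 over 14 of 17 members, and 4 of the 14 (28.6%) reached 1.5-fold, beside 8.03% of all genes. TP53I3, a quinone reductase, had 7.20 in Albumin, 7.93 in CDL, 7.34 in hCDL (0.1x) and 7.48 in E8. RRM2B, a subunit of ribonucleotide reductase, had 8.94 in Albumin, 8.23 in CDL, 8.55 in hCDL (0.1x) and 8.62 in E8, while its probe of smallest range varied by 0.44, under 1.5-fold. CDL was high for the first and low for the second, so the list did not move as one. The brightest were CCNG1 at 12.37 and PMAIP1, the death inducer NOXA, at 11.52.

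Glycolysis was above background at all 18 named members, with a median of 10.78. The B chain of lactate dehydrogenase, LDHB, averaged 13.46, and GAPDH averaged 13.35. TPI1, triose phosphate isomerase, alone reached 1.5-fold, with 11.65 in Albumin, 11.78 in CDL, 12.11 in hCDL (0.1x) and 11.44 in E8. Its probe of smallest range varied by only 0.17, so the call rests on 1 probe. Hypoxia-responsive genes lay close to the overall median at 8.47, over 10 of 12, and ADM, a vasodilator peptide, was their brightest at 11.47.

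The respiratory chain was above background at 41 of 43, with a median of 11.17 and a median range of 0.15, against 0.25 over all genes. ATP5F1B, the catalytic subunit of ATP synthase, had 14.37 in Albumin, 14.40 in CDL, 14.31 in hCDL (0.1x) and 14.25 in E8. NDUFS1, of complex I, was the only member past 1.5-fold, from a dim probe at 6.62. The citric acid cycle list had a median of 9.53 over 10 of 10. Its brightest members, IDH1 at 12.67 and ACO1 at 11.52, are cytosolic enzymes outside the mitochondrial cycle. Pyruvate carboxylase, PC, at 5.79, was the dimmest and widest of the list.

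The lists of cholesterol and of fatty acid synthesis had medians above that of all genes in all 4 media. CDL and hCDL (0.1x), which bring lipid, were among these. Of the cholesterol list all 14 named members were above background, with a median of 10.02. In 10 of the 14 the signal exceeded the median of all genes. HMGCS1, at the entry of the pathway, had 12.92 in Albumin, 12.87 in CDL, 12.99 in hCDL (0.1x) and 12.73 in E8. MSMO1, a sterol demethylating enzyme, had 12.03 in Albumin, 11.93 in CDL, 11.99 in hCDL (0.1x) and 11.75 in E8. E8 was the lowest of the 4 for both, by a small step, and the range of MSMO1 was 0.14 with the mean of its probes. The list as a whole did not share this order. Its median was 9.95 in Albumin, 9.99 in CDL, 10.01 in hCDL (0.1x) and 10.05 in E8, and NSDHL was highest in E8 at 10.17. FDPS, farnesyl diphosphate synthase, had 10.49 in Albumin, 10.25 in CDL, 10.23 in hCDL (0.1x) and 10.03 in E8. HSD17B7, a later enzyme, had 10.36 in Albumin, 10.88 in CDL, 10.24 in hCDL (0.1x) and 10.31 in E8, and was the only member past 1.5-fold.

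Fatty acid synthesis, elongation and desaturation had a median of 11.44 over 9 of 12 named members. SCD, the desaturase that makes oleate, had 13.33 in Albumin, 13.31 in CDL, 13.31 in hCDL (0.1x) and 13.33 in E8, 1.02-fold between the extremes. FASN, fatty acid synthase, had 13.08 in Albumin, 12.86 in CDL, 13.12 in hCDL (0.1x) and 13.29 in E8, with CDL lowest. FADS2, a desaturase of polyunsaturated fatty acids, was dim at 5.80. None of the 9 reached 1.5-fold.

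The list of sterol sensing and uptake was above background at 12 of 13, and 3 of the 12 (25%) reached 1.5-fold, beside 8.03% of all genes. ABCG1, a cholesterol exporter, had 6.87 in Albumin, 6.39 in CDL, 6.57 in hCDL (0.1x) and 7.18 in E8, and its probe of smallest range varied by only 0.28. ABCA1, the other exporter, had 8.57 in Albumin, 8.41 in CDL, 8.75 in hCDL (0.1x) and 8.07 in E8. E8 was the highest array for ABCG1 at this probe and the lowest for ABCA1. NPC2, which hands cholesterol on in lysosomes, was the brightest of the list at 12.71, and TMEM97, a sterol-regulated membrane protein, averaged 12.10.

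Fatty acid oxidation, uptake and lipid droplet genes were above background at 15 of 23, with a median of 10.02. PLIN5, a lipid droplet protein, had 7.11 in Albumin, 8.27 in CDL, 7.40 in hCDL (0.1x) and 7.46 in E8. This is a range of 2.23-fold with CDL apart, and the other PLIN5 probe was not above background on any array. PLIN2, the widespread droplet protein, had 10.07 in Albumin, 10.28 in CDL, 10.42 in hCDL (0.1x) and 10.11 in E8, and did not share that pattern (PLIN2 was added for comparison after its values were seen). FABP7, a fatty acid carrier, was the second past 1.5-fold, with 6.85 in Albumin and between 6.16 and 6.25 in the other 3. FABP5, another carrier, was the brightest at 11.49. Phospholipid and sphingolipid synthesis had a median of 8.50 over 29 of 31 members, and LPCAT1 and SPTSSB were the 2 past 1.5-fold.

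Outside the metallothioneins, described further on, the brightest genes of the stress lists varied little. HSP90AA1, an abundant chaperone, had 14.40 in Albumin, 14.26 in CDL, 14.27 in hCDL (0.1x) and 14.25 in E8. All 24 named cytosolic chaperones were above background with a median of 11.48, and PFDN2, of the prefoldin complex, alone passed 1.5-fold, from a dim probe at 6.23. All 30 named genes of the proteasome and ubiquitin were above background with a median of 11.65 and none reached 1.5-fold. PHGDH, the first enzyme of serine synthesis, averaged 13.76 and ATF4, the factor that drives it under amino acid stress, averaged 13.28. HSP90B1 of the endoplasmic reticulum averaged 13.06. GSTP1 and PRDX1, of glutathione conjugation and peroxide removal, averaged 13.71 and 13.70. In the iron list the iron chaperones PCBP2 at 13.44 and PCBP1 at 13.30 were the brightest.

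Immediate early genes had a median of 7.99 over 9 of 14. JUND was their brightest at 12.60, and KLF2, at 5.81, their widest. Interferon-responsive and HLA genes had a median of 7.35 over 13 of 21, with the restriction factors of viral entry IFITM1 at 11.86, IFITM2 at 11.66 and IFITM3 at 11.17 as the brightest.

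Structural genes were led by the cytoskeleton, with 32 of 34 members above background and a median of 11.96. ACTG1, cytoplasmic actin, had 14.39 in Albumin, 14.51 in CDL, 14.32 in hCDL (0.1x) and 14.44 in E8. TMSB4X, which binds free actin, averaged 14.39 with a range of 0.07. Smooth muscle actin ACTG2 was the widest, with 7.61 in Albumin, 7.13 in CDL, 7.44 in hCDL (0.1x) and 7.97 in E8. The gap junction proteins GJC1 at 13.22 and GJA1 at 13.06 were the brightest of the epithelial list after CD24. ITGB1, the beta subunit of many integrin receptors for the matrix, averaged 12.92.

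The 30 brightest genes lay between 14.16 and 14.52, a span of 1.28-fold, and the largest step between neighbours was 0.05. Their median range between arrays was 0.16, so neighbours in this order did not differ beyond the spread between arrays. The brightest was RPL41 at 14.52 ± 0.09 (SD over the 4 media, n = 4), followed by RPS12 at 14.50 ± 0.07 and TPT1 at 14.49 ± 0.08. Of the 30, 11 were cytosolic ribosomal proteins, as were 37 of the 100 brightest, beside 1.08% of all genes. Another 4 of the 30 were transcribed pseudogenes, ANXA2P2, RPSAP9, RPL13AP20 and H3P6, whose probes may also bind their parent messages, which was not tested. On each array separately, 85 genes were among the 100 brightest on all 4 and 114 on at least 1. The lowest of the 100 averaged 13.37.

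Other probes of the same genes often read far lower. Of the 30 genes 22 had another probe, and in 12 of them the brightest other probe was at least 5 lower in log2 signal, while in 6 it was within 1. LAIR1, an inhibitory receptor of immune cells, had 14.33 in Albumin, 14.34 in CDL, 14.17 in hCDL (0.1x) and 14.41 in E8, and its other probe averaged 4.77 and was not above background on any array. ITIH5, a hyaluronan-binding protein, averaged 14.31, and its 4 other probes were not above background on any array. The same array therefore lists each of these genes both among the brightest and at background.

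CLEC2D, a ligand of natural killer cells, averaged 14.35 and its brightest other probe 6.62. F2R, the thrombin receptor, averaged 14.36 against 7.18 for its other probe. RPL41 itself averaged 14.52 against 5.05, and FARSB, a subunit of phenylalanyl-tRNA synthetase, 14.29 against 5.21. RPS29, H3-3A and RPL6 were among those whose probes lay close, with gaps of 0.35, 0.22 and 0.41. Over all 6476 genes, 1163 (18.0%) had a further probe that passed on none of the 4 arrays. Which transcripts or sequences each probe binds was not tested.

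**Figure D3:**
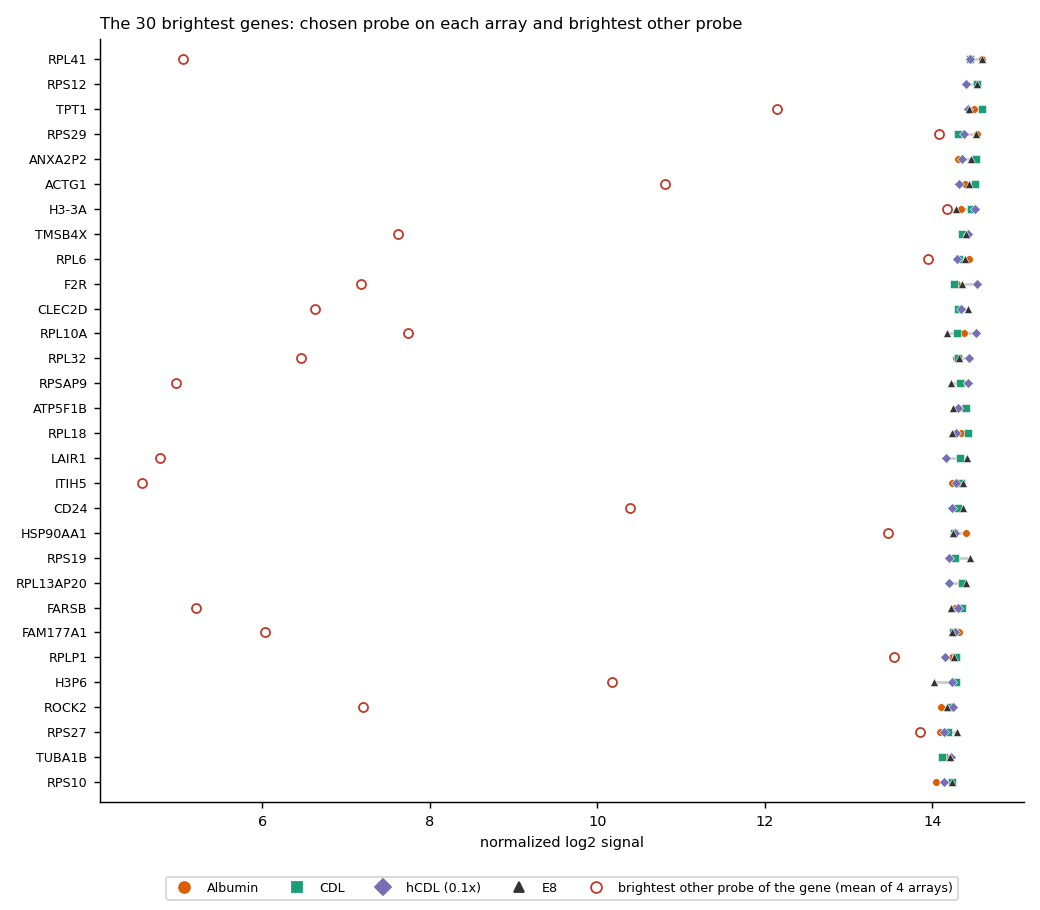
Normalized log2 signal (horizontal axis) of the 30 brightest genes in order, filled symbols for the chosen probe on each array (Albumin, CDL, hCDL (0.1x), E8), open red circles for the mean of the brightest other probe of the same gene. The filled symbols span 14.02 to 14.60, while the open circles reach down to 4.56.

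The 4 arrays were close to each other. The range of a gene, its highest minus its lowest signal over the 4, had a median of 0.25 (1.19-fold) and was under 0.55 (1.46-fold) for 90% of genes. It reached 1.5-fold in 520 genes (8.03%) and 2-fold in 71 (1.1%). Dim genes made up most of these. In the dimmest decile of genes 24.7% reached 1.5-fold with a median range of 0.43, and in the brightest decile 1.54% did with a median range of 0.16. Without background correction only 77 genes reached 1.5-fold and 26 reached 2-fold. Over 3 arrays the counts were 272 and 25 without CDL, and 328 and 44 without Albumin.

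By pairs of arrays, 214 genes (3.3%) differed by at least 1.5-fold between Albumin and CDL, 76 higher and 138 lower in Albumin. Between CDL and E8 there were 181 (2.79%), 97 higher and 84 lower in CDL, and between CDL and hCDL (0.1x) 164 (2.53%), 109 higher and 55 lower in CDL. Between Albumin and E8 there were 130 (2.01%), 47 higher and 83 lower in Albumin, and between Albumin and hCDL (0.1x) 118 (1.82%). The fewest, 91 (1.41%), lay between hCDL (0.1x) and E8, with 43 higher and 48 lower in hCDL (0.1x). All 3 pairs with CDL thus held more such genes than any pair without it. These pairs share arrays, so the counts are not independent.

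Genes in which a single array stood at least 1.5-fold from each of the others were unevenly spread over the arrays. CDL was apart and higher in 46 genes (0.71%) and apart and lower in 14. Albumin was apart and lower in 16 genes (0.247%) and apart and higher in 6. The counts were 1 higher and 4 lower for hCDL (0.1x), and 7 higher and 5 lower for E8. Without background correction CDL was apart and higher in 26 genes and Albumin apart and lower in 7. With 1 array fewer to differ from, Albumin was apart and lower in 26 genes without CDL, 27 without hCDL (0.1x) and 28 without E8, and CDL apart and higher in 72 without E8.

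**Figure D4:**
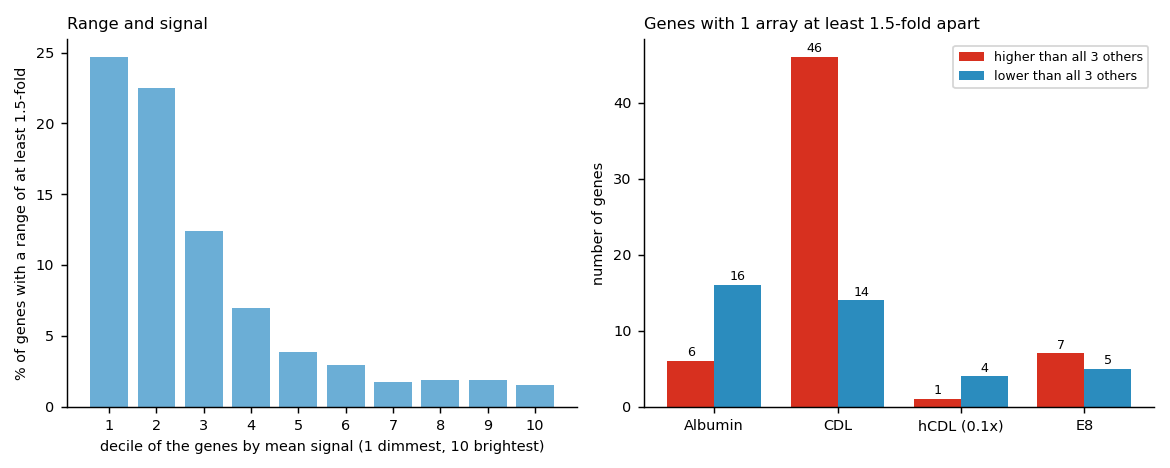
Left, the percentage of genes whose range over the 4 arrays was at least 1.5-fold (vertical axis) by decile of mean signal (horizontal axis), 24.7% in the dimmest and 1.54% in the brightest decile. Right, the number of genes in which 1 array (Albumin, CDL, hCDL (0.1x), E8) stood at least 1.5-fold above or below each of the other 3, with 46 for CDL above.

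The 46 genes with CDL apart and higher had a median signal of 8.19 over the 4 arrays, beside 8.36 over all genes. Of the 46, 17 were in the 3 dimmest deciles. The median of the 46 was 9.11 in CDL, 7.88 in Albumin, 7.84 in hCDL (0.1x) and 8.00 in E8. The CDL value is raised by the choice of the genes. In 27 of the 46, hCDL (0.1x) was the lowest array. COA8, an assembly factor of cytochrome oxidase, had 8.78 in Albumin, 10.12 in CDL, 8.53 in hCDL (0.1x) and 8.83 in E8. CEP19, a centrosome protein, had 9.07 in Albumin, 10.27 in CDL, 8.65 in hCDL (0.1x) and 9.12 in E8. TMEM17, of the ciliary transition zone, had 9.74 in Albumin, 10.88 in CDL, 9.43 in hCDL (0.1x) and 9.97 in E8. In these 3 CDL was the top array by over 2-fold from the lowest, and the order of the other 3 was the same.

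ERAP2, a peptidase that trims antigens, had 10.29 in Albumin, 11.61 in CDL, 10.29 in hCDL (0.1x) and 10.49 in E8. CDKN2AIPNL was the brightest of the 46, with 11.45 in Albumin, 12.38 in CDL, 11.08 in hCDL (0.1x) and 11.50 in E8. The antisense RNA ITPK1-AS1 had 10.20 in Albumin, 11.39 in CDL, 10.01 in hCDL (0.1x) and 10.34 in E8. None of these 6 genes is in any of the 48 lists. Of the 30 genes with the widest range 20 were highest in CDL.

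Other probes of these 46 genes that were above background on all 4 arrays did not show the difference. In 8 genes a total of 10 further probes were above background on all 4 arrays, and 0 of the 10 had CDL 1.5-fold apart. Their median difference of CDL from the mean of the other 3 arrays was 0.08, between -0.02 and 0.30, whereas it was 1.01 for the chosen probes. Among probes above background on only some of the arrays, FCF1 had one, above background on 2, that did show it, with 4.70 in Albumin, 6.68 in CDL, 5.53 in hCDL (0.1x) and 5.19 in E8. Those of GDPD1 and HYKK, also above background on only some arrays, did not. CHRNA5, a nicotinic receptor subunit, had 7.89 in Albumin, 9.21 in CDL, 7.86 in hCDL (0.1x) and 8.14 in E8 at 1 probe. At its other probe it had 7.09 in Albumin, 7.39 in CDL, 7.34 in hCDL (0.1x) and 7.29 in E8. METTL21A, a lysine methyltransferase picked after its values were seen, had 9.83 in Albumin, 10.96 in CDL, 9.83 in hCDL (0.1x) and 9.81 in E8 at its brightest probe. At the next probe it had 8.86 in Albumin, 8.82 in CDL, 8.70 in hCDL (0.1x) and 8.92 in E8.

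In 24 of the 46 genes, CEP19, COA8, TMEM17 and CDKN2AIPNL among them, 34 further probes were not above background on any array. Of all 109 probes with this pattern, 56 (51.4%) carry no gene name here, beside 24.0% of all probes above background on the 4 arrays. What the probes bind, and whether a second CDL culture would repeat the pattern, was not tested.

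The 4 widest ranges belonged to TXNIP and 3 metallothioneins. TXNIP, an inhibitor of thioredoxin whose gene responds to glucose, had the widest range of all 6476 genes, 6.97-fold. It had 8.91 in Albumin, 6.11 in CDL, 6.80 in hCDL (0.1x) and 7.23 in E8, so that no pair of arrays was level.

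Metallothioneins are small cysteine-rich proteins that bind zinc and copper, and their genes are switched on by metal through the factor MTF1. Of 10 named members of their list 7 were above background, and 6 of the 7 (85.7%) had a range of at least 2-fold, beside 1.1% of all genes. The seventh was MTF1 itself, at 1.12-fold. MT1G had 9.54 in Albumin, 11.29 in CDL, 11.44 in hCDL (0.1x) and 11.37 in E8. MT1H had 7.46 in Albumin, 9.00 in CDL, 9.06 in hCDL (0.1x) and 9.11 in E8, and MT1X had 9.15 in Albumin, 10.31 in CDL, 10.28 in hCDL (0.1x) and 10.36 in E8. In each of the 6, also MT1E, MT1F and MT2A, Albumin lay apart below the other 3, which were within 0.26 of one another. MT1H had a second probe of the same pattern, with 4.99 in Albumin, where it was not above background, 6.42 in CDL, 6.18 in hCDL (0.1x) and 6.28 in E8.

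Matches to the metal response element, searched as TGCGCNC and TGCACNC on both strands of the 250 bases before the annotated start, were counted in the RefSeq promoters. All 3 of these genes with a promoter in the table held matches, 8 in MT1H, 7 in MT2A and 4 in MT1X, beside at least 1 match in 24.7% of all promoters and in 34.1% of those of genes above background. The promoter of MT1H is printed since its 8 matches were the most of the 3, at chr16:56669564-56669813 on the + strand of GRCh38.p14, with the matches of either strand in capitals.
MT1H: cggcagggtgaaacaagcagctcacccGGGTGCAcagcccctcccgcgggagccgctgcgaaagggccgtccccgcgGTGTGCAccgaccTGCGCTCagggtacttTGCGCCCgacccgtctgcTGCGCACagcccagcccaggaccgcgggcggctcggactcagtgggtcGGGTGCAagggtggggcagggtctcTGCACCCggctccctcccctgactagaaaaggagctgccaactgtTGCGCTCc

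A match is a stretch of letters and was not tested as a site. MT1G, MT1E and MT1F had no promoter in the table.

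Some of the other wide genes were dim. TNFSF15, a cytokine, had 5.82 in Albumin, 6.83 in CDL, 5.20 in hCDL (0.1x) and 5.91 in E8. FCF1, of ribosome assembly, had 5.94 in Albumin, 7.40 in CDL, 5.93 in hCDL (0.1x) and 5.75 in E8. PRIM2, the large subunit of DNA primase, ran the other way, with 7.50 in Albumin, 5.94 in CDL, 7.51 in hCDL (0.1x) and 7.01 in E8. TRAF4, an adaptor of receptor signalling, was likewise lowest in CDL, with 6.42 in Albumin, 5.59 in CDL, 6.82 in hCDL (0.1x) and 6.32 in E8, and fell short of 1.5-fold without background correction.

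**Figure D5:**
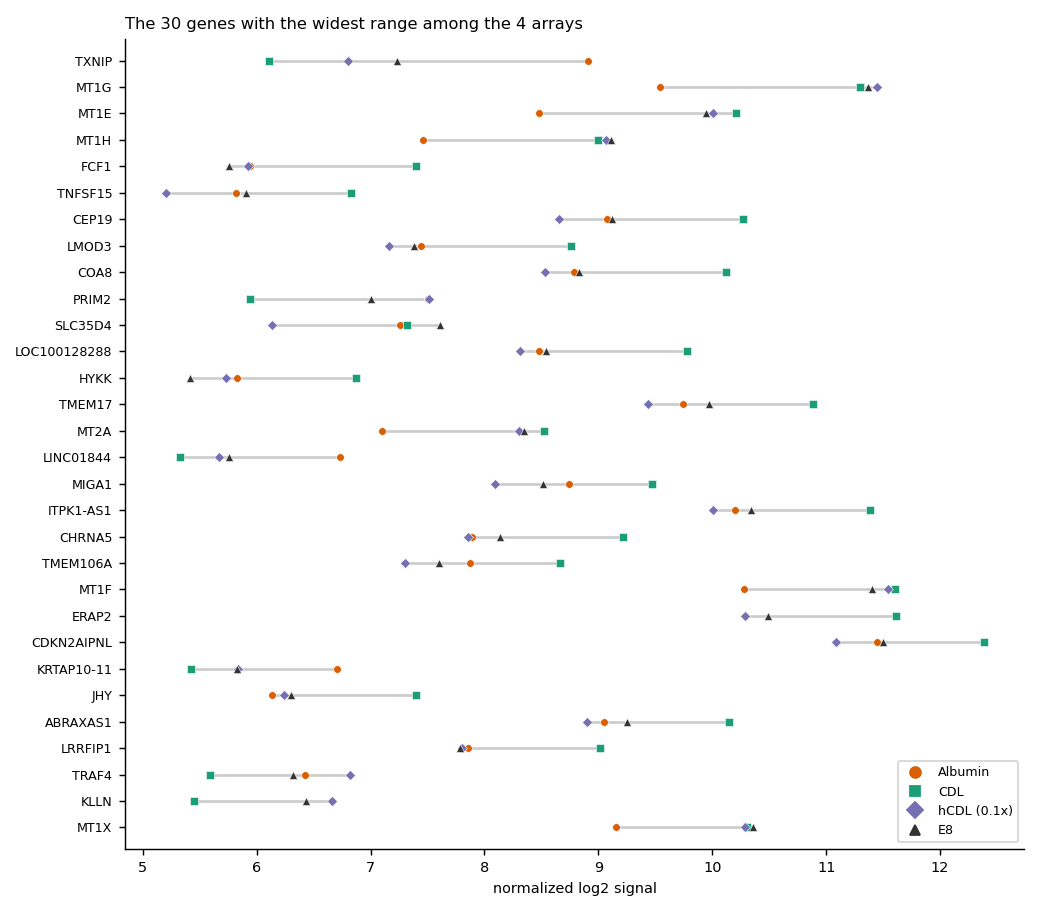
Normalized log2 signal (horizontal axis) of the 30 genes with the widest range, in order of range, 1 symbol per array (Albumin, CDL, hCDL (0.1x), E8) and a grey bar over the range. CDL is the highest array in 20 of the 30, and Albumin is the lowest in all 6 metallothioneins.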

How the data were processed

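RNA of the H1 cultures was turned into biotin cRNA and hybridised to bead arrays, 1 for each medium, per the labels' protocols. Per the file headers, the deposited main table gives every probe an intensity and a detection p-value on each array, without normalization. The submitters' processed intensity values were deposited as a second table and used only in an alternative; their software is not given here. The platform annotation supplied with the data gave 1 symbol to 19221 probes, several to 3 and none to 14642.

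For all 7 arrays, neqc of limma 3.58.1 (R 4.3.3) subtracted background by normexp, taking the negative controls from the detection p-values, with an offset of 16. It then equalized the arrays by quantiles and gave log2 values. The brightest probe above background on all 4 arrays stood for a gene. With 1 array per medium no test was made, folds of 1.5 and 2 stand in for calls, and precision is limited by how few arrays there are. Only the computation of the range and of an array apart was run on simulated arrays, with added shifts well past the limit of 1.5-fold. Noise there was smaller than the spread between the real arrays, so recovery of the shifts does not measure accuracy here. Normalization, the detection filter, the choice of probe and the promoter searches were not tested in this way. Genes were named by a rule: the 30 brightest, the 30 with the widest range, the pluripotency markers, and per list up to 4 members, 2 brightest and 2 widest. Not all of them are printed. The arrays, genes and lists were chosen with earlier results of these data known. Alternatives were other normalizations, detection limits, probe choices and leaving out each array. Promoter sequences are from RefSeq (GRCh38.p14).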

Additional observations from a re-analysis of the deposited data

Results flagged for a closer look

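In 11 of the 34 genes examined, the 30 with the widest range and POU5F1, NANOG, PODXL and LIN28A, 1 array lay far from the other 3. The gap to the nearest array, divided by the whole range, exceeded Dixon's critical value for 4 samples, a limit that chance passes in about 1 of 20 groups. Over all 6476 genes 349 (5.39%) passed it.

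Albumin was the array apart, below the others, in all 6 metallothioneins that were above background. The gap took 0.922 of the range in MT1G, 0.85 in MT1E, 0.931 in MT1H, 0.844 in MT2A, 0.845 in MT1F and 0.94 in MT1X. CDL was the array apart, above the others, in the remaining 5 genes. There the gap took 0.886 of the range in FCF1, 0.845 in LOC100128288, 0.852 in ERAP2, 0.872 in JHY and 0.944 in LRRFIP1. All but 4 of the 34 genes were picked for a wide range, so the number passing is no measure of how rare such a gap is.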

How the results depend on the processing

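Counts at a fold depended on how background was treated, and the picture of bright genes did not. Of the 100 brightest genes at least 98 remained under every alternative except the mean of probes, with 67, and the probe with the smallest range, with 86. With the background left uncorrected, 77 genes reached 1.5-fold and 26 reached 2-fold, 32 of the 50 widest genes remained, CDL was apart and higher in 26 and Albumin apart and lower in 7. The pairs then held 58 genes for Albumin and CDL, 14 for Albumin and E8, 10 for Albumin and hCDL (0.1x), 31 for CDL and E8, 54 for CDL and hCDL (0.1x) and 3 for hCDL (0.1x) and E8. The submitters' processed values gave 78 and 24 genes, 32 of the 50, 26 and 7 genes apart, and 58, 14, 10, 31, 54 and 3 in those pairs. With an offset of 50 there were 183 and 34 genes, 7 with Albumin apart and lower, and 97, 39, 27, 71, 82 and 19 in the pairs. With genes above background on at least 1 array there were 1322 and 210 genes, 24 of the 50 widest, 79 with CDL apart and 25 with Albumin apart, and 501, 409, 373, 498, 420 and 369 in the pairs. At a detection p-value under 0.05 the pairs of E8 held 272 genes with CDL and 154 with hCDL (0.1x), and median centring gave 146 for the second.

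Leaving out 1 array at a time gave 272 to 376 genes at 1.5-fold, 25 to 62 at 2-fold, 15 to 43 of the 50 widest genes, 55 to 72 genes with CDL apart and higher and 26 to 28 with Albumin apart and lower. The low ends of the first 3 came without CDL. Fewer arrays give a narrower range by construction. The counts with 1 array apart were examined under the alternatives after seeing the data. The side of the overall median on which a list lay changed for at most 3 of 48 lists under any alternative. Of the 30 widest genes, 27 stayed at 1.5-fold with the background left uncorrected and 12 without CDL. No paired analysis was possible because each medium has 1 array. Signal near background limits the dim genes, and 1 array per medium limits all.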

Other observations

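Of the 10831 probes above background on all 4 arrays, 2602 carry no gene name here and enter none of the gene counts. By kind of gene, 6219 of the 6476 genes were protein-coding in RefSeq, 122 were transcribed pseudogenes and 94 were long noncoding RNAs. None of the 94 long noncoding RNAs was among the 100 brightest genes, and 9 of the 122 transcribed pseudogenes were. Single arrays differed in what they alone detected. Albumin was the only one of the 4 above background at 559 probes, hCDL (0.1x) at 539, CDL at 294 and E8 at 229, and E8 was the only one not above background at 345.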
